A study of Homo sapiens with 4 samples.

Results

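Small nucleolar RNAs (snoRNAs) and the related small Cajal body-specific RNAs (scaRNAs) were compared between wild-type 293FT cells and cells with a mutation of NIPBL, whose product helps to load the cohesin ring on DNA. Genes were taken by symbol in GENCODE release 29 (SNORA, SNORD or SCARNA followed by a digit), and those with at least 20 expected counts in each of the 4 libraries were kept. This left 58 of 450 such genes, out of 58174 genes in all. They comprised 36 of 147 box H/ACA genes, 11 of 278 box C/D genes and 11 of 25 scaRNA genes. The expected counts of all 4 libraries chose the members, so that a gene silent in either genotype could not be among them, and the levels below are given as a description.

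293FT is an established line of human embryonic kidney origin that expresses a viral T antigen. 2 libraries were labelled NIPBLwt and 2 NIPBLmut, with nothing else differing in the labels, and all cells were grown in the same medium. The labels give neither the kind of NIPBL mutation nor how many clones were used, and nothing in them says whether each library is a culture of its own. The p-values therefore rest on a spread between libraries that may be technical. RNA without its ribosomal part was sequenced from strand-specific libraries, and 31545743 to 33161120 expected counts were assigned to genes per library. Of the 8 markers fixed for the kidney line, 7 were above 59 CPM in every library, and NEFM was at 63.9 to 72.7 CPM in wild-type and 0.833 to 1.33 CPM in mutant libraries. Levels are CPM, expected counts scaled by the TMM-adjusted library total of edgeR. Of the markers of other cell types, CD3E and COL1A2 were at 0, the blood markers PTPRC and HBA1 reached 0.0575 and 1.01 CPM, the endothelial markers PECAM1 and VWF 0.355 and 1.59 CPM, and the fibroblast markers DCN, LUM and COL1A1 0.207, 4.94 and 7.53 CPM.

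SnoRNAs guide the chemical modification of other RNAs by base pairing. Box C/D snoRNAs direct methylation of the ribose and box H/ACA snoRNAs direct the change of uridine to pseudouridine, in both cases mainly in ribosomal RNA, while scaRNAs act in Cajal bodies on the small nuclear RNAs of the spliceosome. Most human snoRNAs have no promoter of their own. They lie in introns of host genes, often genes for ribosomal proteins and translation factors, and are trimmed from the intron after splicing, so that host transcription, splicing and snoRNA stability all set their level.

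The sequences of the members that passed the test, and of SNORA63, SNORD94 and SNORD97, which lay near either end of their class, are given as annotated in GENCODE release 29 (GRCh38). SNORA73A (chr1:28507366-28507571, plus strand) and SNORA73B (chr1:28508559-28508762, plus strand) are near copies, and capitals mark the bases that differ between them. They were identical at 193 of 207 aligned positions, and the longest run they shared was 54 bases.
SNORA73A: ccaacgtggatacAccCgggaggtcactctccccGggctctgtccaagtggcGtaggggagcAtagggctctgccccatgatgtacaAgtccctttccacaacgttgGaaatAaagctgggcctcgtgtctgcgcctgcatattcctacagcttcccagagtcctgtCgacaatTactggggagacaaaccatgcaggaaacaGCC
SNORA73B: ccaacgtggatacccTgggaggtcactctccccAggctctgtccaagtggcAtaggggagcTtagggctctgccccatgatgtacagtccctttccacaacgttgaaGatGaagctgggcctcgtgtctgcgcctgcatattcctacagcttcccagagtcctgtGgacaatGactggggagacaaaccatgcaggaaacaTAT

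SCARNA6 (chr2:233288676-233288940, plus strand) and SNORD94 (chr2:86135870-86136006, plus strand) carry the letters of the C box near the start and of the D box near the end, in capitals. In SNORD97 (chr11:10801467-10801608, minus strand) neither was found in these windows. In SNORA63 (chr3:186787300-186787431, plus strand) the capitals mark the closing ACA of its class.
SCARNA6: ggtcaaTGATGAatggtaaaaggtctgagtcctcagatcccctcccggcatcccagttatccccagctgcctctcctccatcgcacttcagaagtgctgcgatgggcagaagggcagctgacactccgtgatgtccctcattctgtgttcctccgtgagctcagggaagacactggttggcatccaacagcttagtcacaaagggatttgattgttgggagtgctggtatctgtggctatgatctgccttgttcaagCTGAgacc
SNORD94: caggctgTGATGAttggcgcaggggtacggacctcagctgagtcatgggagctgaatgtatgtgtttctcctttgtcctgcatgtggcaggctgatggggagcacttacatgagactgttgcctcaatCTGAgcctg
SNORD97: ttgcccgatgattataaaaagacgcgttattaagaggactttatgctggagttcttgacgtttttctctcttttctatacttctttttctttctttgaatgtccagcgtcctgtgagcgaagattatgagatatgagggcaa
SNORA63: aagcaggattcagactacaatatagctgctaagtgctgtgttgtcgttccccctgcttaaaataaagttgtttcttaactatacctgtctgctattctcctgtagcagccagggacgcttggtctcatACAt

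These motifs were searched on the annotated strand as TGATGA in the first 25 bases, CTGA in the last 25 and ACA in the last 6, and matches to different motifs were allowed to overlap. ACA stood at the end of 35 of 36 box H/ACA members, against 90.5% of all 147 genes of that class and 4.68% of all box C/D genes. TGATGA and CTGA stood together in 4 of 11 box C/D members and 5 of 11 scaRNA members, against 67.6% of all box C/D genes, 5 of all 25 scaRNA genes and 1 of all 147 box H/ACA genes. These shares are a description, and a match is not a shown site.

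Genes that reached the floor were longer in the box C/D and scaRNA classes. For each member the deposited effective length, the number of positions at which a read can start, was 65 bases shorter than the gene. Box C/D genes that did not reach the floor had a median length of 81 bases, and box C/D members 146 bases. Of 244 box C/D genes of up to 100 bases 1 reached the floor, SNORD32A at 84 bases, and of 34 longer ones 10 did. For box H/ACA genes the medians were 136 bases in members and 133 bases in the others, and for scaRNA genes 275 and 134.5 bases. The 392 genes below the floor summed to 36.4 and 35.7 CPM in the wild-type libraries, against 28.2 and 26.2 CPM in the mutant ones, and 183 box C/D, 36 box H/ACA and 2 scaRNA genes had no count in any library. Nearest below the floor were SNORA74B, with 19 to 37 counts, and SNORA74D, with 17 to 32. Nearest above it were SNORA4, with 23.95 to 36.22 counts, and SNORA22, with 24.56 to 40.77.

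**Figure D1:**
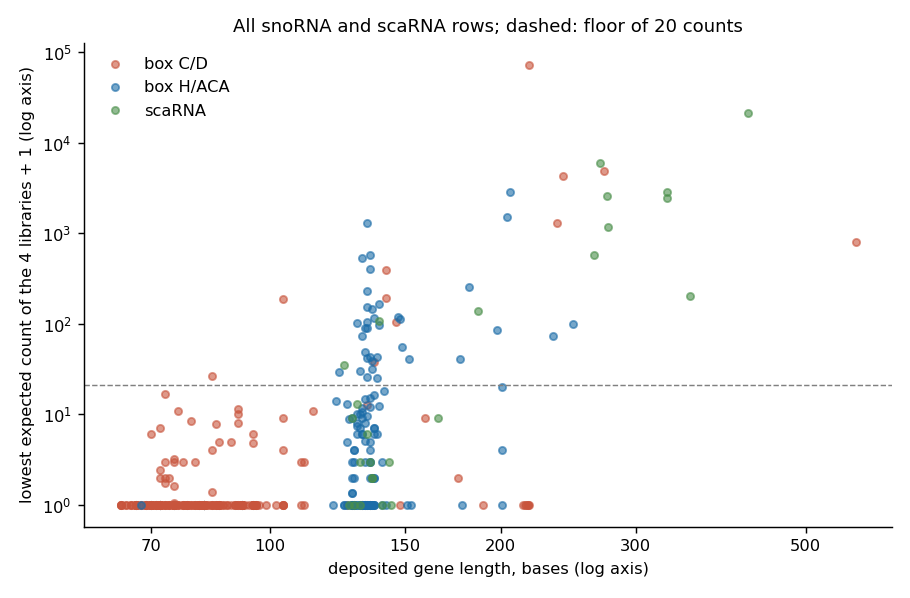
Deposited gene length in bases (log axis) against the lowest expected count over the 4 libraries plus 1 (log axis) for all 450 snoRNA and scaRNA genes, 1 point per gene, coloured by class. The dashed line is the floor of 20 counts. Most box C/D genes lie at short lengths on the bottom line, and 1 of the 244 of up to 100 bases lies above the floor.

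Members spanned a wide range of levels. Per kilobase of deposited length, SNORD3A, whose RNA is needed for the first cleavages of the ribosomal RNA precursor, had the highest mean CPM (10911), followed by the scaRNAs SCARNA2 (1855) and SCARNA12 (739). SNORA73A (558), SNORA71A (332) and SNORA73B (306) led the box H/ACA class, SCARNA13 (341) followed SCARNA12 among scaRNAs, and SNORA4 was lowest (6.91). These are means over all 4 libraries, and the order within the class differed by genotype: SNORA73B had 394 in wild type and 219 in mutant, SNORA71A 336 and 329.0. Together the 58 members held 0.504% and 0.430% of all counts in wild-type and 0.447% and 0.419% in mutant libraries. The 4 SNORD3 genes held 0.292% and 0.256% of all counts in wild-type and 0.282% and 0.254% in mutant libraries.

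Stretches of 66 bases, 1 base more than the shortfall of the effective length, were taken from the shortest annotated transcript of each member. They cover only part of a gene whose deposited length is greater, such as SNORD3C (581 bases, 152 stretches) and SNORA59B (234.38 bases, 87 stretches). For 27 of the 58 members no stretch of 66 bases occurred in a transcript of another gene in GENCODE release 29. For 23 members at least 1 such stretch also lay in a transcript of an overlapping gene on the same strand, and for 18 of these every stretch did. For 11 members a stretch occurred in a gene elsewhere. In 7 of them, SNORD3A, SNORD3B-1, SNORD3B-2, SNORD3C, SNORA59A, SNORA59B and SNORA10, this was over 50% of the stretches, so their separate counts are uncertain. How the authors' counting divided shared reads was not checked. Only annotated transcripts were searched, so reads of unspliced host RNA over an intronic member cannot be told apart from those of the member. A further limit is that the strand setting of the counting is not given in the sources used here, and 8 members overlap a gene on the other strand.

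Between genotypes, 3 members were lower in mutant libraries and none was higher, by edgeR's quasi-likelihood test with Benjamini-Hochberg adjustment over all 18984 tested genes at a threshold of 0.05. That is 5.17% of members, against 5.81% of all tested genes (2.1% lower and 3.71% higher), so the share called was near the background. In bulk RNA, fewer cells that make an RNA and less of it per cell cannot be told apart. The 3 were the box H/ACA genes SNORA73A and SNORA73B and the scaRNA SCARNA6. At an unadjusted p under 0.05 there were 14 of 58 members, 13 of them lower. Over all tested genes there were 5653 of 18984 (29.8%), 2626 of them lower. DESeq2 called 5 members lower and none higher, and its share over all genes was not taken. The median log2 fold change, mutant over wild type, was -0.16 over members and -0.0055 over all tested genes, and members ranged from -0.85 to 0.55.

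The members' median lay below that of all tested genes under each of the 14 other fits, by 0.09 to 0.25, but its own sign depended on the scaling. With total counts it was 0.0052, where all tested genes had 0.17, and with limma-trend on TPM 0.033, where they had 0.12. Between the wild-type libraries the members had a median difference of -0.12 (replicate 2 minus replicate 1), against the -0.16 between genotypes, and between the mutant libraries of -0.016. Without wild-type replicate 1 the median was -0.095, and without wild-type replicate 2 it was -0.24.

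**Figure D2:**
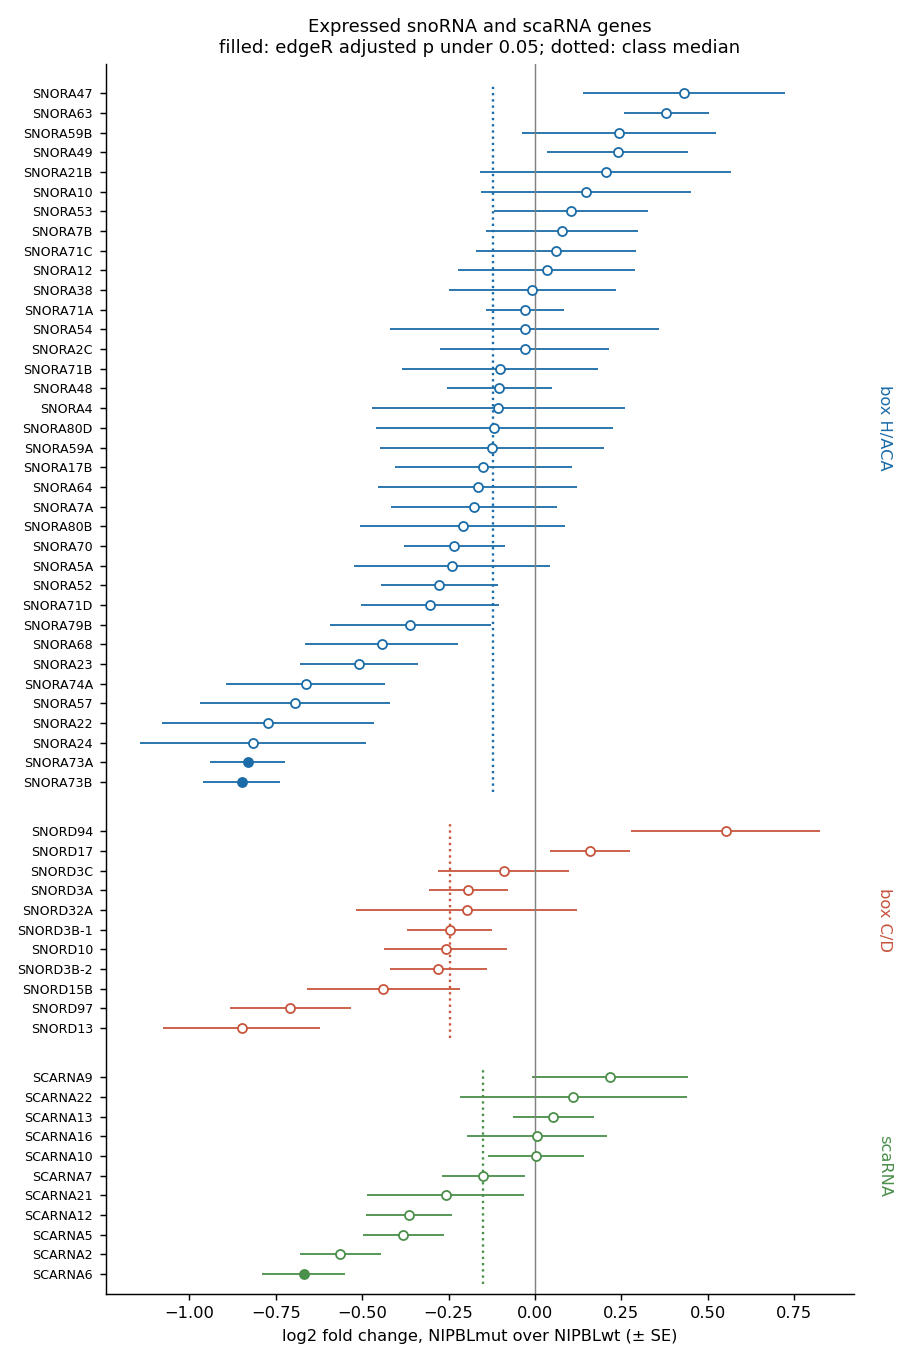
Log2 fold change, mutant over wild type, of the 58 members with its standard error (horizontal bars), grouped by class and ordered within it. Filled points have an edgeR adjusted p under 0.05, the dotted lines are class medians and the grey line is no change. The 3 filled points, SNORA73A, SNORA73B and SCARNA6, lie between -0.85 and -0.67.

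SNORA73A and SNORA73B, which are needed to process the small-subunit part of the ribosomal RNA precursor, were lower in both mutant libraries. SNORA73A was at 148 and 146 CPM in the wild-type libraries and at 83.8 and 81.5 CPM in the mutant libraries. Its log2 fold change was -0.83 (standard error, SE, 0.11; edgeR adjusted p = 0.0294). SNORA73B was at 78.7 and 81.9 CPM in wild-type cells and at 45.8 and 43.3 CPM in mutant cells, giving a log2 fold change of -0.85 (SE 0.11; edgeR adjusted p = 0.0294). The genotypes were well apart in both genes, with a gap far wider than the spread within either pair. Both RNAs share their locus and are not independent.

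The locus lies within the spans of SNHG3, a noncoding host gene for snoRNAs, and RCC1, the chromatin-bound exchange factor of the GTPase Ran. SNHG3 was at 118 and 151 CPM in the wild-type libraries, against 59.0 and 51.3 CPM in the mutant ones, and it was also called (log2 fold change -1.28, SE 0.16, edgeR adjusted p = 0.0294), as it was in each of the 14 other fits. RCC1 was at 153 and 255 CPM in wild-type cells, with 101 and 90.0 CPM in mutant cells (-1.10, SE 0.26), and it was not called (edgeR adjusted p = 0.066). Every stretch of 66 bases of SNORA73A also lies in a transcript of SNHG3 with a retained intron, while none of SNORA73B occurs in another annotated transcript. Among neighbours of the locus, 25 tested protein-coding genes to either side with hosts left out, the median was -0.21.

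SNORA73A and SNORA73B stayed called in all fits that kept both mutant libraries, with log2 fold changes of -0.63 to -0.85 for SNORA73A and -0.65 to -0.89 for SNORA73B. Without mutant replicate 1 or 2 neither was called (edgeR adjusted p from 0.129 to 0.234), at -0.81 to -0.89. Those fits take the spread from the wild-type pair alone, and the fits without a wild-type library take it from the mutant pair alone.

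None of the other box H/ACA members passed edgeR's test or DESeq2's. At an unadjusted p under 0.05 there were 8 of 36, the called pair included and 1 of them higher, against 29.8% of all tested genes. The class had a median of -0.12, with 26 members below 0 and 10 above. Its sign turned with total counts (0.043) and on TPM (0.052), and it was -0.045 with upper-quartile scaling, -0.012 without wild-type replicate 1 and -0.25 without wild-type replicate 2. SNORA24, which lies in the noncoding host SNHG8, was at 1.34 and 1.85 CPM in the wild-type libraries, against 0.964 and 0.825 CPM in the mutant ones (-0.82, SE 0.33). Every stretch of 66 bases of SNORA24 also lies in a transcript of SNHG8, which had -0.49 (SE 0.12). SNORA22 was at 1.31 and 1.36 CPM in wild-type cells, with 0.727 and 0.842 CPM in mutant cells (-0.77, SE 0.31). The 17 members under 100 mean counts, SNORA24 and SNORA22 among them, had a median SE of 0.31. At the 13 members of at least 1000 counts it was 0.12. Neither SNORA24 nor SNORA22 was called in the fit of all 4 libraries. Without wild-type replicate 1 both were (edgeR adjusted p = 0.00371 for SNORA24 and 0.0470 for SNORA22).

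At the other end of the class, SNORA47 had 1.81 and 1.41 CPM in the wild-type libraries, against 1.95 and 2.38 CPM in the mutant ones (0.43, SE 0.29). SNORA63, shown above, had 18.4 and 17.9 CPM in wild-type cells, with 24.5 and 22.8 CPM in mutant cells. The neighbours of this locus, taken as for SNORA73A, had a median of 0.74. The log2 fold change of SNORA63 was 0.38 (SE 0.12) and missed the threshold (adjusted p = 0.114 in edgeR). It ranged from 0.33 to 0.57 over the other fits, and was called in those without a wild-type library. It shares the host EIF4A2, a helicase of translation initiation, with SNORA4 (-0.11, SE 0.37), which had 0.772 to 1.21 CPM. SNORA59B (0.24) and SNORA49 (0.24) had the next largest values, both with an SE over 0.2.

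The host SNHG17 holds 4 members, the box H/ACA genes SNORA71A to SNORA71D. SNORA71A was at 46.7 and 43.2 CPM in the wild-type libraries, against 44.0 and 44.2 CPM in the mutant ones (-0.029, SE 0.11). SNORA71B (-0.10), SNORA71C (0.061) and SNORA71D (-0.30) lay lower in level, at 1.24 to 5.82 CPM. None was called. SNHG17 itself had -0.40 (SE 0.19, edgeR adjusted p = 0.218).

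edgeR called no box C/D member and DESeq2 called SNORD13 lower. Of 11 members 2 reached an unadjusted p under 0.05, against 29.8% of all tested genes. The class median was -0.25, with 9 members below 0 and 2 above, and it stayed below 0 in each fit, at -0.074 with total counts and -0.052 on TPM. In the reported fit this median is the value of SNORD3B-1. The members below 0 include the 4 SNORD3 genes, which share sequence and are not independent. SNORD13, which guides acetylation of small-subunit ribosomal RNA and has its own transcription unit, was at 12.1 and 8.47 CPM in wild-type cells, with 5.59 and 5.80 CPM in mutant cells. Its log2 fold change was -0.85 (SE 0.23), not called by edgeR (adjusted p = 0.0835) and called by DESeq2 (adjusted p = 0.0327) and in edgeR without either wild-type library. SNORD97, within the translation factor gene EIF4G2, was at 8.73 and 9.60 CPM in the wild-type libraries, against 5.63 and 5.61 CPM in the mutant ones (-0.71, SE 0.17, edgeR adjusted p = 0.0715), and it too was called without either wild-type library. SNORD15B, in RPS3, had -0.44 (SE 0.22). The neighbours of SNORD13, SNORD97 and SNORD15B, taken as for SNORA73A, had medians of -0.41, 0.072 and 0.079.

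The SNORD3 genes, read as a group because their sequences are shared, summed to 2970 and 2840 CPM in the wild-type libraries, against 2668 and 2390 CPM in the mutant ones. SNORD3A had -0.19 (SE 0.11), SNORD3B-1 -0.25 (SE 0.12), SNORD3B-2 -0.28 (SE 0.14) and SNORD3C -0.090 (SE 0.19), and the smallest edgeR adjusted p of the 4 was 0.24. The groups overlapped for SNORD3C. SNORD94 was at 1.19 and 1.27 CPM in wild-type cells, with 1.80 and 1.81 CPM in mutant cells (0.55, SE 0.27, edgeR adjusted p = 0.24). It was called higher with limma-trend on TPM (0.71, adjusted p = 0.0376). SNORD17 was at 45.3 and 43.0 CPM in the wild-type libraries, against 47.0 and 51.7 CPM in the mutant ones (0.16, SE 0.12). Neighbours, taken as for SNORA73A, had medians of 0.39 for SNORD94, 0.12 for SNORD17 and 0.30 for the SNORD3 genes.

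**Figure D3:**
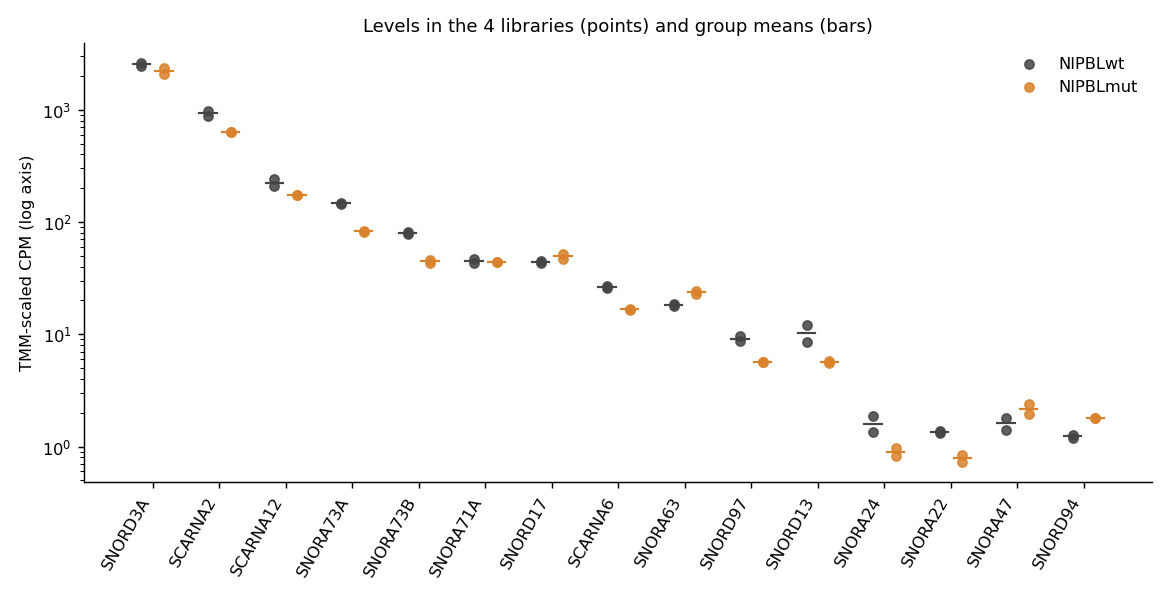
Levels of 15 members in TMM-scaled CPM (log axis), with 1 point per library, dark grey for the 2 wild-type and orange for the 2 mutant libraries, and a short bar at each group mean. SNORA73A, SNORA73B and SCARNA6 show tight pairs that lie apart between genotypes, with SNORA73A at 146 to 148 CPM in wild type and 81.5 to 83.8 CPM in mutant.

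Among scaRNAs SCARNA6 was lower in mutant libraries, at 26.9 and 26.0 CPM in wild-type cells, with 16.8 and 16.4 CPM in mutant cells (log2 fold change -0.67, SE 0.12, edgeR adjusted p = 0.0416). It lies in ATG16L1, an autophagy gene, with no annotated exon of another gene on its strand over it. ATG16L1 was at 36.8 and 48.6 CPM in the wild-type libraries, against 32.2 and 30.4 CPM in the mutant ones (-0.45, SE 0.16, edgeR adjusted p = 0.144). SCARNA5, in the same host, was at 48.6 and 46.7 CPM in wild-type cells, with 34.7 and 38.4 CPM in mutant cells (-0.38, SE 0.12, edgeR adjusted p = 0.105). The groups did not overlap in any of the 3 genes, as was so, in the same direction, for 30.9% of all tested genes. The neighbours of this locus, taken in the same way, had a median of -0.44.

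The call on SCARNA6 depended on the fit. It was lost with the stricter filter (-0.61, adjusted p = 0.0591), with upper-quartile scaling (-0.59, 0.0589), with limma-trend on TPM (-0.47, 0.0713) and with total counts (-0.50, 0.0761), and without mutant replicate 1 (-0.69, 0.306) or replicate 2 (-0.65, 0.383).

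SCARNA2, a guide for a spliceosomal RNA and the second most abundant member per length, was at 983 and 875 CPM in the wild-type libraries, against 627 and 631 CPM in the mutant ones. Its log2 fold change of -0.56 (SE 0.12) narrowly missed the threshold of edgeR (adjusted p = 0.0536), and it was called lower by DESeq2 (adjusted p = 0.00691), limma-voom (0.0478) and edgeR with no filter (0.0428), and without either wild-type library. All of its stretches of 66 bases also lie in the noncoding gene AL356488.2, which had -0.21 (SE 0.16). That gene covers chr1:109100193-109100619 and SCARNA2 chr1:109100193-109100612, both on the plus strand. They nearly coincide, so their separate counts are uncertain. SCARNA12, in the prohibitin gene PHB2, was at 241 and 209 CPM in wild-type cells, with 176 and 174 CPM in mutant cells (-0.36, SE 0.12, edgeR adjusted p = 0.128). Of the stretches of SCARNA12, 84.9% also lie in a transcript of PHB2, which had -0.27 (SE 0.12). SCARNA13 (0.053, SE 0.12), SCARNA16 (0.0060, SE 0.20), SCARNA22 (0.11, SE 0.33) and SCARNA9 (0.22, SE 0.23) had the largest values of the class. The class median was -0.15, with 6 members below 0 and 5 above. It was 0.018 with total counts, 0.049 on TPM, -0.070 with upper-quartile scaling, -0.068 without wild-type replicate 1 and -0.24 without wild-type replicate 2.

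Wild-type and mutant libraries did not overlap in 34 members, 28 of them lower and 6 higher in mutant. As shares of members these are 48.3% and 10.3%, against 30.9% and 32.3% of all tested genes. Of the 28 lower members 15 were box H/ACA, 7 box C/D and 6 scaRNA genes. Differences between the classes were not tested, and their medians of -0.12, -0.25 and -0.15 are a description. As sums, box H/ACA members were at 441 and 417 CPM in the wild-type libraries, against 322 and 315 CPM in the mutant ones. ScaRNAs summed to 1625 and 1437 CPM in wild-type cells, with 1157 and 1153 CPM in mutant cells. Box C/D members summed to 3060 and 2920 CPM in the wild-type libraries, against 2745 and 2471 CPM in the mutant ones. A few abundant genes weigh most in these sums, so they do not describe the typical member of a class. Group means in wild type and mutant were 147 and 82.7 CPM for SNORA73A and 80.3 and 44.6 CPM for SNORA73B. They were 929 and 629 CPM for SCARNA2 and 2905 and 2529 CPM for the SNORD3 genes together.

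A host gene, the gene on the same strand whose span holds the whole RNA, was found for 53 members, and where several qualified the one with the most counts was taken. By this rule AL356488.2 counts as the noncoding host of SCARNA2, although their spans nearly coincide. There were 45 hosts, of which 6 held more than 1 member. Among hosts 2 were lower and none higher by edgeR (4.44%, against 5.81% of all tested genes). At an unadjusted p under 0.05 there were 13 of 45, all lower, against 5653 of 18984 tested genes, 2626 of them lower. DESeq2 called 6 hosts lower, and its share over all genes was not taken. With limma-trend on TPM 0 hosts were called, and the calls were also lost without mutant replicate 1 or 2. More hosts were called without wild-type replicate 1 or 2, where the spread comes from the mutant pair alone. The share of all tested genes called in those fits was not taken. The hosts' median log2 fold change was -0.25. The 2 called hosts, MATR3 and NSD2, held no called member. The called gene SNHG3 spans SNORA73A and SNORA73B but is not among these hosts, since RCC1 had more counts.

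MATR3, a nuclear RNA-binding protein, was at 78.8 and 100 CPM in wild-type cells, with 44.8 and 48.2 CPM in mutant cells (-0.95, SE 0.15, edgeR adjusted p = 0.0382). The call was lost on TPM (-0.57, adjusted p = 0.0569) and without mutant replicate 1 (edgeR adjusted p = 0.137) or 2 (0.0958). SNORA74A, within its span, was at 4.32 and 4.05 CPM in the wild-type libraries, against 2.87 and 2.41 CPM in the mutant ones (-0.66, SE 0.23, edgeR adjusted p = 0.131). The noncoding gene SNHG4, which also spans SNORA74A, was called lower (-0.94, SE 0.16, edgeR adjusted p = 0.0413), though not with the stricter filter (adjusted p = 0.0505), on TPM (0.0814) or without mutant replicate 1 (0.101) or 2 (0.133). NSD2, a histone methyltransferase, was at 191 and 178 CPM in wild-type cells, with 110 and 116 CPM in mutant cells (-0.71, SE 0.11, edgeR adjusted p = 0.037). Its call was lost with total counts (adjusted p = 0.0565), the stricter filter (0.0504), TPM (0.0593) and without mutant replicate 1 (0.340) or 2 (0.308). SCARNA22 in the same gene had 1.48 and 1.14 CPM in the wild-type libraries, against 1.63 and 1.21 CPM in the mutant ones, so its groups overlapped. The neighbours of SCARNA22 and SNORA74A, taken as for SNORA73A, had medians of -0.54 and -0.012.

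Across the 53 pairs the member's log2 fold change exceeded the host's in 31 and lay below it in 22, with a median difference of 0.078, and 41 pairs had the same sign. The direction of the median rested on 1 library, at -0.094 without wild-type replicate 2 and 0.22 without wild-type replicate 1. In 23 pairs the difference was at most 0.2 in size. Pearson's r was 0.58 and Spearman's rho 0.54 across the pairs, which share libraries, scaling, in part their host and in part annotated sequence, so they are not independent. The part of unspliced host RNA in the members' counts was not tested.

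In 4 pairs the member lay at least 0.5 above its host and in 2 at least 0.5 below. Furthest above was SNORA80B (1.02 above) in ODC1, the ornithine decarboxylase of polyamine synthesis. SNORA80B was at 1.22 to 1.41 CPM in wild type and 1.09 to 1.18 CPM in mutant, while ODC1 was at 321 and 631 CPM in wild-type cells, with 202.5 and 204 CPM in mutant cells. The others were SCARNA22 in NSD2 (0.82), SNORA21B in RPL23 (0.65) and SNORA80D in AIMP2 (0.57). Furthest below was SNORA79B (-0.996) in CCNB1IP1, followed by SNORA47 (-0.51) in ZBED3. The log2 ratio of SNORA79B to CCNB1IP1 was -3.98 ± 0.40 in wild type and -5.04 ± 0.07 in mutant (SD, n = 2 each). These ratios were not tested.

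**Figure D4:**
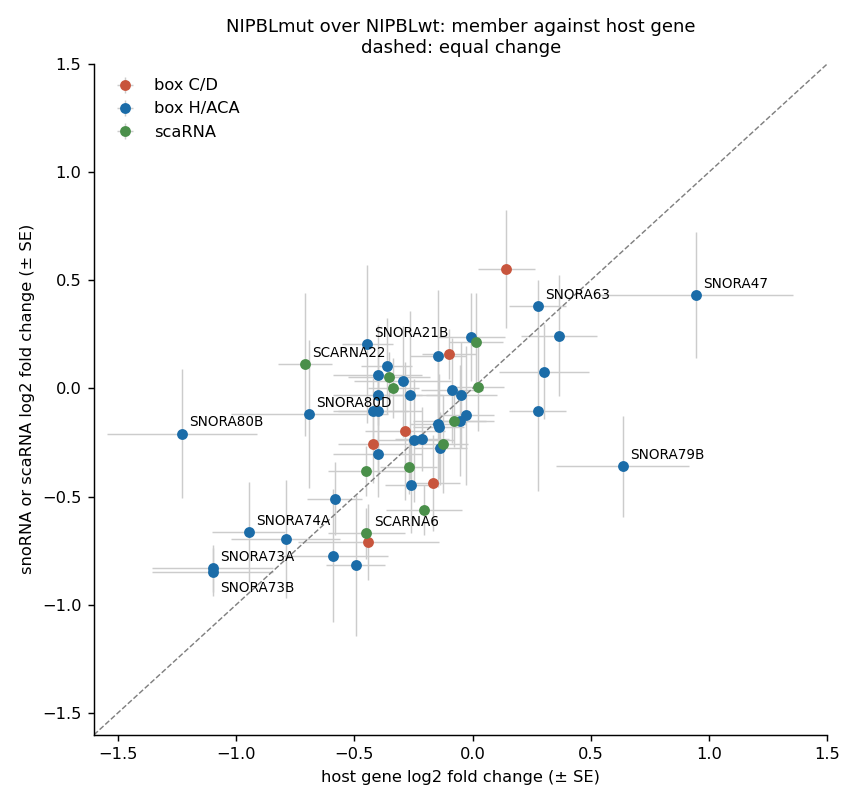
Log2 fold change of the host gene (horizontal axis) and of the snoRNA or scaRNA in it (vertical axis), mutant over wild type with SE, for 53 pairs coloured by class. The dashed line marks equal change. SNORA73A and SNORA73B lie at -0.83 and -0.85 with their host RCC1 at -1.10, and SNORA80B and SNORA79B lie furthest from the line.

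By kind of host, the 9 members in ribosomal protein genes had a median of -0.20 and none was called. The 34 in other protein-coding hosts had a median of -0.11 and included the 3 called, of which SNORA73A and SNORA73B count here through RCC1 and also lie in the noncoding SNHG3, the 10 in noncoding hosts or pseudogenes had -0.13 and the 5 with no host had -0.25. The members of at least 1000 counts had a median of -0.25, those of 100 to 1000 counts -0.17 and those under 100 counts -0.11. The members with no host were SNORD13 and the 4 SNORD3 genes. Their median and that of the members of at least 1000 counts are both the value of SNORD3B-1, whose separate count is uncertain.

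The protein partners were read from a list of 36 genes for snoRNP core, assembly, Cajal body and processing proteins, all of which were tested. 1 was lower and none higher by edgeR (2.78%, against 5.81% of all tested genes). At an unadjusted p under 0.05 there were 9 of 36, all lower, against 5653 of 18984 tested genes, 2626 of them lower. DESeq2 called 6 genes of the list lower, and its share over all genes was not taken. NOP58, a core protein of box C/D particles, was at 177 and 256 CPM in the wild-type libraries, against 104 and 100 CPM in the mutant ones (-1.09, SE 0.20, edgeR adjusted p = 0.0429). Its call was lost with the stricter filter (adjusted p = 0.0511) and without mutant replicate 1 (0.0634) or 2 (0.0975). More genes of the list were called lower without wild-type replicate 1 or 2. Those fits take the spread from the mutant pair alone, and their share over all tested genes was not taken. The other box C/D core genes had -0.70 (SNU13), -0.55 (NOP56) and -0.18 (FBL, the methyltransferase). The box H/ACA core genes had -0.67 (GAR1), -0.26 (DKC1, the pseudouridine synthase), -0.19 (NHP2) and -0.080 (NOP10), none called, and wild type and mutant overlapped in 3 of these 4.

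The list's median was -0.35, and 31 of its 36 genes lay below 0. In this list the median of wild-type replicate 2 minus replicate 1 was 0.38, whereas in the members it was -0.12. Without wild-type replicate 2 the list's median was -0.12, and without wild-type replicate 1 it was -0.62. The part of this replicate difference in the list's median was not tested.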

How the data were processed

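Per the labels' protocols, ribosomal RNA was removed from total RNA and a strand-specific kit was used for the 4 libraries. The authors deposited 1 table per library with, per the file headers, expected counts (estimated reads per gene), TPM, FPKM (not used here) and gene lengths. STAR 2.7.3a, RSEM 1.3.1 and hg38 are named in the submitters' processing notes. Not given in the sources used here were the annotation release and the strand setting. Gene identifiers were matched to GENCODE release 29 (57836 of 58174).

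Expected counts were rounded and fitted over all genes in edgeR 4.0.16 (R 4.3.3) with filterByExpr by group, TMM scaling and robust quasi-likelihood tests, 2 libraries against 2, and all 58 members passed the filter. The SE is the size of the log2 fold change over the root of the F statistic. DESeq2 1.42.0, limma 3.58.1 on the deposited TPM, and other scalings and filters gave alternatives. The 2 SNORA73 sequences were aligned with edlib 1.3.9.post1. The test was checked on simulated data. 1 count was worth 0.0287 to 0.0335 CPM, and counting error alone is 20.4% at the lowest member count of 23.95. The mean chi-square per gene over members was 13.8 between wild-type and 11.9 between mutant libraries. Over all tested genes it was 51.1 and 3.98. At the same relative spread this measure grows with the count, so the deepest genes weigh most in it. SNORD3A had 72932.5 to 81449.2 counts, and the 2 lists were not matched for depth. Each library was counted as 1 sample.

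Members and lists were chosen with earlier results of these data known. Named members are all called ones, the 4 largest and 4 smallest log2 fold changes and the 3 highest levels per length of each class, members of a host with 3 or more, and the genes nearest the floor, with their hosts. Named proteins are called or core ones. SNORD32A, SNORA74A, SNORA79B, SNORA80B, SNORA80D, SNORA21B, the members with copies, SNHG3 and SNHG4 were named after their values were seen.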

Additional observations from a re-analysis of the deposited data

How the results depend on the processing

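The alternatives were other scalings, filters and tools, TPM, a replicate block, leaving out each library, other floors and leaving out members that overlap an exon. Subtracting the neighbours' median (member median -0.20) and leaving out 7 members with copies elsewhere (-0.17) were chosen after seeing the data. Of 400 values of named members under alternative fits, 337 kept direction and call, 29 gained and 10 lost the call, and 24 changed sign. DESeq2 called 5 members, 6 hosts and 6 protein genes lower, and limma-voom 2 protein genes. With no filter 5 hosts and 4 protein genes were lower, and with the stricter filter 1 and 0. The box H/ACA and scaRNA medians were -0.045 and -0.070 with upper-quartile scaling and 0.043 and 0.018 with total counts, where 1 host was lower and the protein list had -0.17. On TPM the medians were 0.033 for members, 0.052 for box H/ACA, -0.052 for box C/D, 0.049 for scaRNA and -0.14 for the protein list, with 1 member higher and 0 hosts lower. The replicate numbers share no stated batch, and deviations of same-numbered libraries correlated at -0.0593 across 18984 genes. With the replicate block 3 members, 4 hosts and 3 protein genes were lower, and the member median was -0.15. Leaving out 1 library gave from 0 to 4 members higher and 0 to 21 lower, 0 to 5 hosts higher and 0 to 29 lower, and 0 to 4 protein genes higher and 0 to 30 lower. Medians ran from -0.24 to -0.095 for members, -0.25 to -0.012 for box H/ACA, -0.33 to -0.20 for box C/D, -0.24 to -0.068 for scaRNA, -0.094 to 0.22 for member minus host and -0.62 to -0.12 for the protein list. Fits without a wild-type library take the spread from the mutant pair alone and called more members lower. Fits without a mutant library lost the calls. The share of all tested genes called was taken only for the reported fit. The counts called under the alternatives therefore cannot be read as above or near the background. Members that changed sign had values of -0.19 to 0.24 in the reported fit, none called there, and the cause was not tested. SNORA71A had 0.052 with upper-quartile scaling, 0.14 with total counts, 0.028 with the stricter filter and 0.17 on TPM. SNORA71B had 0.068 with total counts and 0.035 on TPM, SNORD3A 0.0023 on TPM, and SNORD3C 0.087 with total counts and 0.096 on TPM. SCARNA16 had -0.0026 with RLE scaling, -0.0088 with no filter and -0.0033 with DESeq2. Over the fits that left out 1 library, SCARNA13 ran from -0.029 to 0.12, SCARNA16 from -0.089 to 0.091, SCARNA22 from -0.12 to 0.31, SCARNA9 from -0.018 to 0.48, SNORA59B from -0.025 to 0.56, SNORA71A from -0.086 to 0.012, SNORA71C from -0.037 to 0.15 and SNORD3C from -0.31 to 0.096.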
